A study of Arabidopsis thaliana with 47 samples.

Results

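MORC7 occupancy without CG methylation was described from the peak list of MORC7-FLAG chromatin immunoprecipitation sequencing (ChIP-seq) in met1 (replicate 2, the 1 met1 list analysed) against the lists of the same tagged protein in wild-type plants (replicates 1, 2 and 3). A peak was used where it lay on chromosomes 1 to 5, with a q value below 0.01 (a −log10 q above 2) and a fold enrichment over the library's own background above 2. The study is a set of 47 Arabidopsis thaliana samples on MORC proteins and RNA-directed DNA methylation (RdDM), and 22 of its ChIP-seq peak lists were used. The met1 plants were met1-3 plants with the MORC7-FLAG transgene, and the wild type was MORC7-FLAG without that mutation. In both, MORC7 with a triple FLAG tag was expressed from its own promoter, from a line that lacks the endogenous protein (morc7-1). The met1 and wild-type MORC7-FLAG samples were of the Columbia-0 strain, labelled as floral tissue of plants 5 to 6 weeks old, and were precipitated with the anti-FLAG M2 antibody. For context, the same protein had been precipitated in 9 libraries of 4 RdDM mutants: nrpd and nrpe (the largest subunits of Pol IV and Pol V), nrpdnrpe, and dms3, in which the crosses segregated for the transgene. Further lists covered FLAG-tagged MORC4 and untagged controls, each in replicates 1 and 2. RNA polymerase II (Pol II) was precipitated in wild type and in hex, a mutant without working MORC genes. ZF-DMS3 plants carried MORC7-FLAG plus HA-tagged DMS3 fused to an artificial zinc finger, and both tags were precipitated. An anti-HA control used MORC7-FLAG plants without the fusion. Expression levels came from the 3 libraries labelled WT RNA-seq. Of the 144309 peaks at the threshold in all 22 lists, 6574 came from met1, against 8173, 8259 and 7952 from wild-type replicates 1, 2 and 3. Merging the wild-type peaks gave 6424 regions with peaks in at least 2 of 3 wild-type libraries, called wild-type regions here. A region was kept when any met1 peak overlapped it, and lost otherwise.

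MET1 is the DNA methyltransferase that copies CG methylation onto newly replicated DNA, and plants without it lose CG methylation throughout the genome. RdDM is the plant pathway in which Pol IV makes the precursors of small RNAs and Pol V transcripts guide those RNAs and the methyltransferase DRM2 to transposons and repeats, so that cytosines of every sequence context become methylated. MORC proteins are ATPases that compact chromatin and help to silence methylated genes and transposons. The comparison asks at which MORC7 sites the protein is still found when CG methylation is gone, in plants where RdDM genes are intact.

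The sequences at the strongest arm sites are given as examples, and they do not stand for all kept or all lost regions. Below are 200 bases centred on the wild-type summit, plus strand of the TAIR10.1 RefSeq genome, for the 3 kept arm regions and then the 1 lost arm region with the highest mean wild-type fold enrichment among those called in all 3 wild-type libraries, with CG dinucleotides in capitals.
Kept, upstream of AT1G60110 (chr1:22167540-22167739): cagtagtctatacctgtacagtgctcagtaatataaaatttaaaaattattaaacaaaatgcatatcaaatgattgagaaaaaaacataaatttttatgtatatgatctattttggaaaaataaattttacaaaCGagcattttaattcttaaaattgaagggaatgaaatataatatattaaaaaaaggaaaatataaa
Kept, upstream of AT2G30740 (chr2:13095059-13095258): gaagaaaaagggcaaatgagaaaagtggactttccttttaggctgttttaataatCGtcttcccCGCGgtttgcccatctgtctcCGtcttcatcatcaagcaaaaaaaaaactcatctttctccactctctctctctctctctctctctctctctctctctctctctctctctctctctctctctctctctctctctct
Kept, upstream of AT1G56090 (chr1:20979540-20979739): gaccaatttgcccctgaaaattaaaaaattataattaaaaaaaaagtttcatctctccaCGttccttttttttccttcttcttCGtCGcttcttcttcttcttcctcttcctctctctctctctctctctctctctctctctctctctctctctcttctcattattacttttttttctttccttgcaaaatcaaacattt
Lost, upstream of AT5G39320 (chr5:15742174-15742373): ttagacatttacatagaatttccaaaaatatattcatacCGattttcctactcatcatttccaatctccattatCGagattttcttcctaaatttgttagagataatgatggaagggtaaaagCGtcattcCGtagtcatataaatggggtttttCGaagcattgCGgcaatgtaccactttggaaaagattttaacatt
The kept sequences held 1, 4 and 3 CG dinucleotides and the lost one 6. In the 301 bases around the summit, CG cytosines per 100 bases (both strands) were 1.99, 2.66 and 1.99 at these kept regions. They were 3.99, 7.97, 0.66 and 3.99 at the 4 strong lost arm regions described further below. AT2G30740 and AT1G56090 both carried long runs of alternating C and T. A match of only 8 such letters was found at 16.0% of all kept and 9.62% of all lost regions. Across the genome it was in 5.40% of arm and 3.01% of pericentromeric windows. The met1 peak at AT2G30740, which encodes a protein kinase, reached a fold enrichment of 5.15, against 6.13, 8.58 and 6.30 in wild-type replicates 1, 2 and 3. At AT5G39320 (UDG4, a UDP-glucose dehydrogenase) a met1 interval of fold 1.43 lay under the threshold, against wild-type folds of 5.67, 4.52 and 7.16.

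Peak lists hold no read numbers, so the depth of each library was unknown, and the number and width of the peaks stand in for it. The met1 peaks had a median width of 783 bp and covered 7.11 Mb. The wild-type libraries differed more from each other than met1 did from their middle, with median widths of 649, 163 and 981 bp and 7.32, 1.97 and 10.8 Mb covered in replicates 1, 2 and 3. Median fold enrichment was 2.68 in met1, against 2.59, 2.46 and 3.02 in wild type. Close to the threshold, the lowest met1 fold used was 2.001 and the highest left out was 1.9998. The untagged wild-type controls had 230 and 965 peaks. The peaks of met1 carry the same date string in their names as nrpe replicate 2, dms3 replicate 1, the ZF-DMS3 libraries and the anti-HA control of MORC7-FLAG plants. None of the 3 wild-type MORC7-FLAG replicates carries it. Whether that marks a batch was not tested. The floral label was checked only in the 3 libraries labelled WT RNA-seq, a sample group apart from the MORC7-FLAG RNA-seq. There AP1 was at 0 TPM in all 3 libraries, AP3, PI and SEP3 stayed between 0 and 0.59 TPM, and AG was at 1.16, 2.11 and 1.16 TPM. The defining floral genes were thus absent or near 0 in those libraries. In bulk tissue, fewer cells of a type and less RNA per cell cannot be told apart.

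In met1, 61% of the wild-type regions kept a MORC7 peak (3918 of 6424, exact 95% interval 59.8 to 62.2%). Of the 2506 lost regions, 1179 (18.4% of all regions) overlapped a deposited met1 interval that missed the threshold, and 1327 (20.7%) had no deposited met1 interval at all. Counting every deposited interval, 79.3% of the regions had one. On the same regions the 9 RdDM mutant libraries recovered between 42.9% (nrpdnrpe replicate 2) and 82.4% (dms3 replicate 2), and 2 of them, nrpe replicate 1 (63.0%) and dms3 replicate 1 (63.7%), lay close to met1. The ZF-DMS3 anti-FLAG library, which shares the date string of met1, recovered 91.8% (5898 of 6424). It took no part in the tests over libraries below. The exact intervals cover counting error over regions of 1 library and no biological spread.

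Wild-type libraries helped to define the regions, so each was judged on a set built from the pair of libraries that did not include it, and met1 on those same 3 sets. On the regions without replicate 1, met1 recovered 82.2% and wild-type replicate 1 recovered 95.9% (2849 regions). On the regions without replicate 2, met1 recovered 62.1% and wild-type replicate 2 recovered 51.3% (5324 regions). On the regions without replicate 3, met1 recovered 75.7% and wild-type replicate 3 recovered 74.6% (3870 regions). So met1 stood below one wild-type library, above another and beside the last. The mean difference, met1 minus wild type, was −0.59 ± 12.3 percentage points (SD over the 3 sets), with p = 1 in a two-sided exact permutation test over libraries, which cannot go below 0.25 with 1 library against 3. Against 12 libraries, the 3 wild-type and the 9 RdDM mutant ones, p was 0.692, where 0.0769 is the smallest this design allows, and no measure compared in this way passed 0.05 (adjusted p of 0.692 over 9 measures). A recovery rate alone thus did not set met1 apart beyond the spread between wild-type libraries, though a p that misses the threshold does not show that they did not differ. With only the 2000 peaks of highest −log10 q from each library, the mean difference was −16.4 percentage points.

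**Figure D1:**
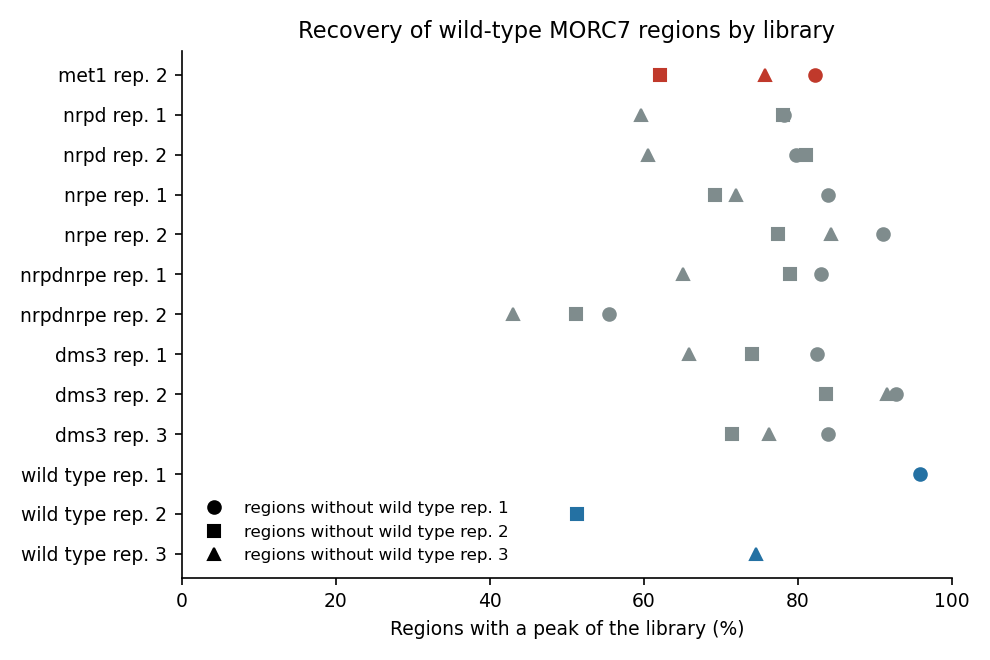
Share of wild-type MORC7 regions with a peak, in percent, for met1 (red), each RdDM mutant library (grey) and each wild-type library (blue), with a marker for each of the 3 region sets that leave out 1 wild-type library. The met1 markers lie between 62.1% and 82.2%, inside the span of the wild-type markers from 51.3% to 95.9%.

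The share kept differed with the number of wild-type libraries that called a region, in met1 and in the RdDM mutants. Regions called in all 3 wild-type libraries were kept in met1 in 83.5% of cases (2280 of 2732), and those called in 2 libraries in 44.4% (1638 of 3692). The median of the RdDM mutant libraries was 85.0% and 53.9%. Within the second group, regions shared by replicates 1 and 2 were kept in met1 in 56.3% of cases, those shared by replicates 2 and 3 in 50.8%, and those shared by replicates 1 and 3 in 39.5%. The RdDM mutant medians had the other order, 11.5, 34.7 and 63.0%. Kept regions also had the stronger wild-type peaks. Median wild-type fold at kept against lost regions was 3.02 and 2.46 in replicate 1, 2.73 and 2.39 in replicate 2, and 3.95 and 3.45 in replicate 3. At the kept regions the met1 fold had a median of 2.91 (quartiles 2.38 and 3.94), and its rank correlation with the mean wild-type fold was 0.54 across 3918 regions. The RdDM mutant libraries gave 0.64 to 0.75 by the same measure, a description over regions that share libraries. The met1 summit lay a median of 53 bp from the wild-type summit, but 11.9% of kept regions had it more than 500 bp away, compared with 5.22 to 9.31% in the RdDM mutants. The reference summits come from the wild-type libraries, so these give no such share to compare with.

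By quintiles of mean wild-type fold, the share kept in met1 was 47.5% in the lowest quintile (fold 2.01 to 2.45), 59.8%, 56.1% and 59.5% in the next 3, and 82.1% in the highest quintile (fold 4.11 to 7.31). The gradient was nearly flat over the middle quintiles. Mean fold was taken over the libraries that called a region, so the quintile depends in part on which those were. Its median was 3.00 at regions shared by replicates 1 and 3. It was 2.37 at those shared by replicates 1 and 2 and 2.41 at those shared by replicates 2 and 3. The part of this in the gradient was not tested. In the 9 RdDM mutant libraries the median share was 22.6% in the lowest quintile, 49.5, 75.6 and 87.5% in the next 3 and 96.7% in the highest. The lowest of those 9 in the highest quintile was 92.1%, above met1. On the sets that leave out 1 wild-type library, the highest minus lowest difference averaged 28.5 percentage points in met1 and was 24.0 to 86.6 in the RdDM mutants and 15.4 to 71.2 in wild type (exact permutation p = 0.308 against 12 libraries).

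Pericentromeres are the gene-poor and transposon-rich stretches around the centromeres. On each chromosome they were taken as the block of 100-kb bins around the lowest protein-coding gene coverage, smoothed over 11 bins. The block reached as far as coverage stayed below 50% of the genome median, and no centromere position was used. They made up 21.9 of 119 Mb (18.4% of the genome) and held 1476 of the wild-type regions. The share kept in met1 was 64.9% in pericentromeres (958 of 1476) and 59.8% in chromosome arms (2960 of 4948), a difference of 5.08 percentage points. All 9 RdDM mutant libraries kept more of the pericentromeric regions, 74.4 to 97.0%, while their shares in the arms ran on both sides of met1, from 33.6 to 81.8%. On the sets that leave out 1 wild-type library, the pericentromere minus arm difference averaged 5.09 percentage points in met1, and was 4.94 to 45.7 in the RdDM mutants and 2.57, −7.63 and 30.2 in wild-type replicates 1, 2 and 3 (exact permutation p = 0.385 against 12 libraries). Of the 1476 pericentromeric regions, 600 were in the highest fold quintile. Within quintiles, pericentromere minus arm in met1 was −13.8, −18.4 and −8.29 percentage points in the lowest 3 quintiles and 2.38 and 3.28 in the upper ones, with a mean over quintiles of −6.96. So the sign differed between the pooled value and the mean over quintiles. The difference also turned to −3.43 when all deposited intervals were used. It was −0.14 when pericentromeres were taken as all sequence within 3 Mb of the middle of each block.

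**Figure D2:**
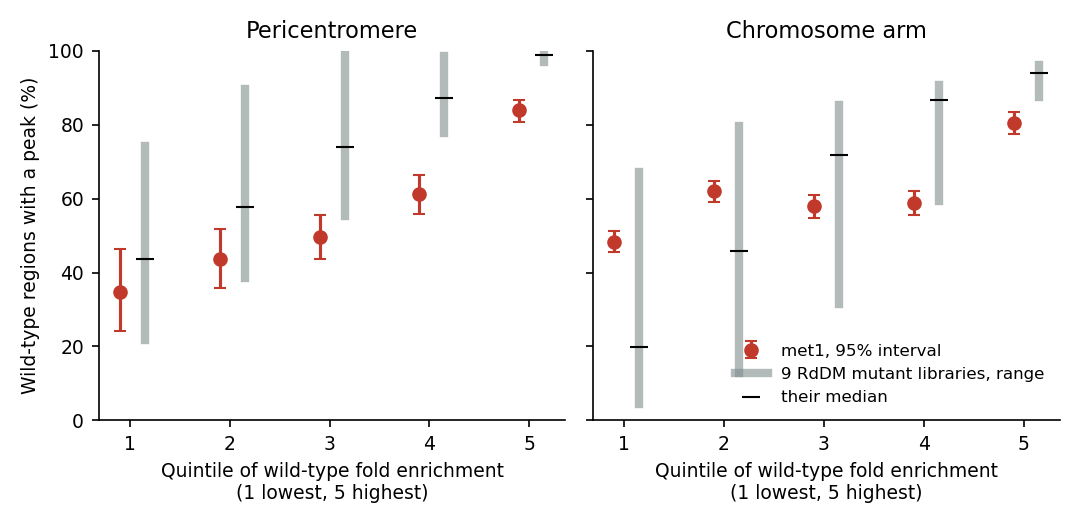
Share of wild-type regions with a peak, in percent, against the quintile of mean wild-type fold enrichment, for pericentromeres (left) and chromosome arms (right). Red points are met1 with exact 95% intervals, grey bars the range of the 9 RdDM mutant libraries and black ticks their median. In the highest quintile met1 lies at 83.8% and 80.6%, below all 9.

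Within the arms, the share kept in met1 was higher the farther a region lay from the pericentromere: 52.5% under 1 Mb (769 regions), 56.4% between 1 and 3 Mb, 59.2% between 3 and 6 Mb, and 64.6% beyond 6 Mb (2027 regions). The median of the RdDM mutants went the other way over the same classes, 78.9, 64.7, 58.6 and 48.4%. On the sets that leave out 1 wild-type library, regions beyond 6 Mb minus those under 1 Mb were 10.7, 17.3 and −1.36 percentage points in met1 without replicates 1, 2 and 3, with a mean of 8.89, against means of −38.3 to −3.56 in the 9 RdDM mutants. The met1 sign thus turned on the set without replicate 3. The wild-type libraries gave −0.36, 20.3 and −32.1, a span that contains the met1 value, and p was 0.231 against the 12 libraries (exact permutation test, measure chosen after seeing the data). By chromosome, the share kept ran from 58.9% on chromosome 1 to 63.1% on chromosome 4.

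By the place of the summit, regions in protein-coding gene bodies were kept in 62.4% of cases (757 of 1213), those within 1 kb upstream of a gene in 55.4% (1229 of 2217), those within 1 kb downstream in 55.1% (457 of 829), and intergenic ones in 68.5% (1317 of 1924). Regions in pseudogenes were kept in 59.6% of cases (84 of 141) and those in non-coding genes in 74.0% (74 of 100). No deposited met1 interval was present at 29.1% of pseudogene regions, 26.9% of downstream, 23.4% of upstream, 18.0% of intergenic and 15.3% of gene body regions. In the arms alone the shares kept were 62.8% in gene bodies, 55.8% upstream, 55.6% downstream, 65.7% intergenic and 50.0% in pseudogenes (27 of 54). The intergenic minus gene body difference averaged 5.25 percentage points in met1 on the sets that leave out 1 wild-type library, within the 1.31 to 29.7 of the RdDM mutants and the −8.67 to 19.4 of wild type (exact permutation p = 0.615 against 12 libraries).

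**Figure D3:**
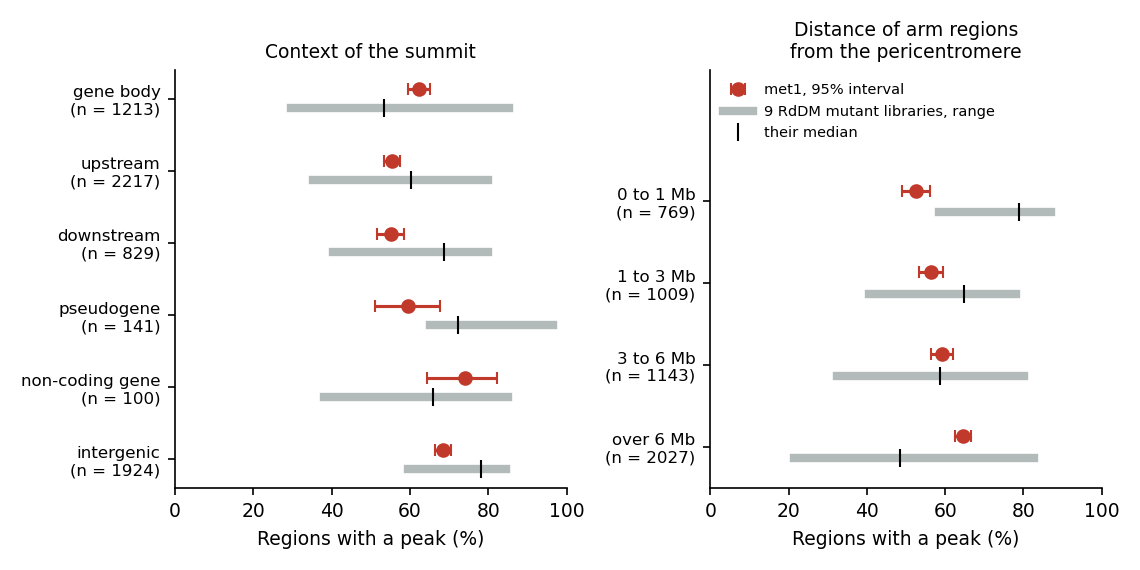
Share of regions with a peak, in percent, by the context of the wild-type summit (left) and, for arm regions, by distance from the pericentromere (right). Red points are met1 with exact 95% intervals, grey bars the range of the 9 RdDM mutant libraries and black ticks their median. With distance, met1 goes from 52.5% up to 64.6% while the median of the mutants goes from 78.9% down to 48.4%.

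CG dinucleotides are the sites that MET1 maintains, so they were counted in the 301 bases around each wild-type summit. Regions with none were kept in 84.3% of cases (327 of 388), those with 1 to 3 in 69.5%, with 4 to 6 in 59.2%, with 7 to 9 in 51.9% and with 10 or more in 54.7% (763 of 1394). Kept regions averaged 3.91 and lost regions 4.62 CG cytosines per 100 bases, both strands counted, and the window was free of CG in 8.35% of kept and 2.43% of lost regions. By medians the values were 3.32 at kept and 3.99 at lost regions, beside 3.99 in arm and in pericentromeric windows across the genome. Taken over all regions the lower CG at kept regions was not particular to met1. Few (at most 3) minus many (at least 10) CG averaged 17.2 percentage points in met1, 0.11 to 24.6 in the RdDM mutants and 3.36 to 33.0 in wild type (exact permutation p = 0.615 against 12 libraries), and the kept minus lost difference in CG gave p = 0.692.

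A gradient with CG was seen in the highest fold quintile and, up to 7 to 9 CG, in the 4 lower quintiles pooled. In the lower quintiles taken separately, mean CG cytosines per 100 bases did not differ in the same direction throughout. From the lowest up, the mean was 4.52, 4.88, 4.37 and 3.54 at kept regions, and 5.01, 4.66, 4.45 and 4.47 at lost ones. In the 4 lower fold quintiles together met1 kept 79.4% of regions without a CG (231 of 291), 62.5% with 1 to 3, 52.1% with 4 to 6, 48.6% with 7 to 9 and 53.7% with 10 or more (687 of 1279). In the highest fold quintile met1 kept 99.0% of regions without a CG (96 of 97), 87.6% with 1 to 3 (401 of 458), 80.8% with 4 to 6 (357 of 442), 72.1% with 7 to 9 (124 of 172) and 66.1% with 10 or more (76 of 115). The RdDM mutant libraries recovered between 89.1% and 100% of the regions in each of these classes of the highest quintile. The ZF-DMS3 anti-FLAG library recovered 100% in each of them. On the sets that leave out 1 wild-type library, few minus many CG within the highest quintile was 10.6, 18.0 and 13.5 percentage points in met1, with a mean of 14.0. The 9 RdDM mutants lay between −3.08 and −0.18, and wild-type replicates 1, 2 and 3 at 0, 4.70 and 0. Since the RdDM mutants recovered nearly every region of the highest quintile, a difference between CG classes had little room to show in them. This measure was chosen after seeing the data and is 1 of the 9 whose p values were adjusted together. No conclusion is drawn from its test. Over all regions the same difference in met1 was between 15.8 and 18.7 percentage points on the 3 sets, larger than in the highest quintile on each.

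**Figure D4:**
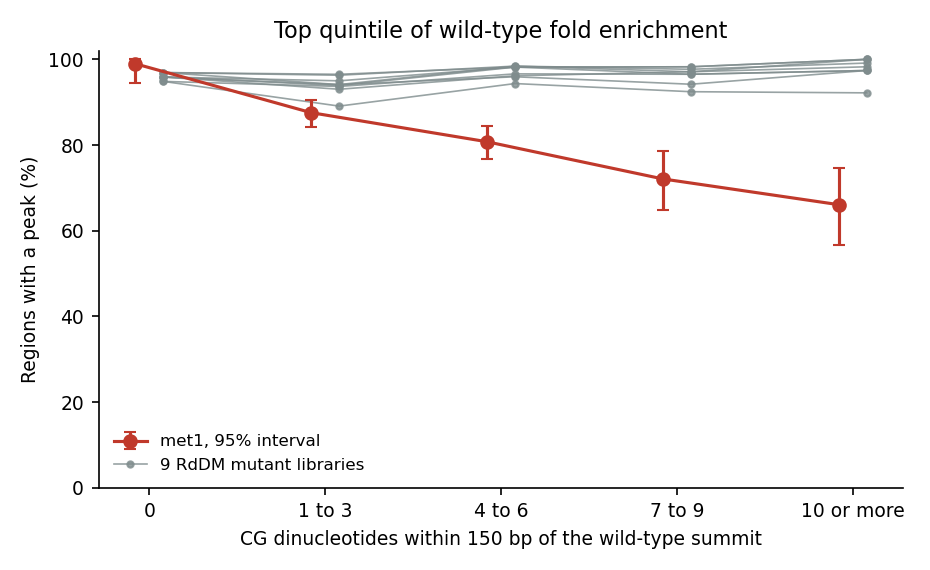
Share of regions of the highest fold quintile with a peak, in percent, against the number of CG dinucleotides within 150 bp of the wild-type summit, for met1 (red, exact 95% intervals) and the 9 RdDM mutant libraries (grey lines). Met1 goes from 99.0% at no CG to 66.1% at 10 or more, and no RdDM mutant library falls under 89.1%.

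The same order was seen in both compartments. With at most 3, with 4 to 9 and with 10 or more CG, met1 kept 93.3, 78.2 and 74.1% of the pericentromeric regions of the highest quintile, and 86.8, 78.4 and 59.0% of the arm regions. Fold and width moved along with the CG classes. In the highest quintile the median of the mean wild-type fold was 4.82 without CG, 5.01 with 1 to 3 and 4.56 with 10 or more, and the median region width was 2072, 2453 and 1867 bp in the same classes. In the arms the regions of that quintile with at most 3 and with 10 or more CG had median folds of 4.82 and 4.41 and median widths of 2027 and 1452 bp. Over all regions met1 kept 80.4% of those wider than 2000 bp (1021 of 1270), 59.8% of those of 1000 to 2000 bp, 53.0% of those of 500 to 1000 bp and 55.7% of narrower ones. The part of fold and width in the CG gradient was not tested. Of the other sequence features in that quintile, median CHH cytosines were 25.2 per 100 bases at kept and 23.9 at lost regions, median CG was 2.66 and 3.32, median CHG was 2.66 in both, and the median GC share was 30.9% in both.

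A run of alternating C and T, searched as CTCTCTCT on either strand (AGAGAGAG on the other), with no other motif searched, was present in the window of 16.0% of kept regions (625 of 3918) and 9.62% of lost regions (241 of 2506). Among regions with no deposited met1 interval it was 6.63%. The same letters were in 5.40% of arm windows and 3.01% of pericentromeric windows of that length across the genome, and in 5.33% of the 301-base stretches that end at the start of a protein-coding gene. Regions with the run were kept in 72.2% of cases and those without it in 59.2%. In the lowest fold quintile the order was the other way, with the run at 14.6% of kept and 15.7% of lost regions. The difference in the share kept was 7.197, 19.5 and 2.90 percentage points in met1 on the sets without wild-type replicates 1, 2 and 3. Its mean of 9.86 stood beside means of −0.18 to 8.12 in the 9 RdDM mutants and 23.3 in wild-type replicate 2 (exact permutation p = 0.231 against 12 libraries, measure chosen after seeing the data). On the set without replicate 3, nrpe replicate 1 (3.805), nrpdnrpe replicate 2 (4.30) and dms3 replicate 3 (4.47) lay above met1. A match of these letters is a description of the window only. Reads were kept only where they matched once in the genome, and the effect of long repeats on that step was not tested.

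Some regions were called in all 12 of the 3 wild-type and 9 RdDM mutant libraries. Of 1423 such regions, 205 (14.4%, interval 12.6 to 16.3%) had no met1 peak. Scored in the same way against the other 12, the RdDM mutants and wild types lacked between 0.0820% and 25.5%, with a median of 0.45%, and 2 libraries lay above met1, nrpdnrpe replicate 2 with 19.1% and wild-type replicate 2 with 25.5%. The exact permutation p was 0.231, in a test that is not among the 9 measures adjusted together. Leaving out wild-type replicate 2 raised the number of such regions to 2182 and the share that met1 lacked to 25.1%. Counted on the 6424 wild-type regions, met1 lacked 23.5% of these common regions upstream of genes (99 of 421), 15.7% downstream, 9.93% of intergenic ones (60 of 604) and 7.65% of those in gene bodies (15 of 196).

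Listed genes were looked up next, each with its wild-type region within 1 kb. Of all 27444 protein-coding genes 6624 had such a region, and 62.5% of these kept it in met1 (4138 genes), which is the background for the lists. Of 17 genes of DNA methylation and demethylation, 8 had a region and 5 kept it. The lost ones were ROS1, the main DNA glycosylase that removes methylcytosine and whose expression is known to follow promoter methylation, VIM3, a methylcytosine-binding partner of MET1, and IBM1, the histone demethylase that protects genes from CHG methylation. Upstream of ROS1 (chromosome 2, region 15314089 to 15315185, TAIR10) met1 had no deposited interval, against wild-type folds of 3.35, 2.66 and 4.43, and 8 of the 9 RdDM mutant libraries had a peak. Upstream of VIM3 met1 had none either, while all 9 RdDM mutant libraries had a peak and wild-type folds were 2.05 and 3.27 in replicates 1 and 3. The IBM1 region lay inside the gene and had a met1 interval of fold 1.59, against 2.48 and 2.97 in wild-type replicates 1 and 3. Only 3 of the 9 RdDM mutant libraries had a peak at the IBM1 region.

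The kept ones were DRM1, a de novo methyltransferase, with a met1 fold of 3.56 against 3.61, 3.15 and 4.72 in wild type, CMT2, the chromomethylase for CHH sites (2.34 in met1, against 2.49 and 2.098 in replicates 1 and 2), and the glycosylase genes DME (2.05) and DML2 (2.07), whose met1 peaks were just over the threshold. SUVH5, a histone methyltransferase gene, kept 1 of its 2 regions. At MET1 itself a met1 peak of fold 4.78 spanned chr5:19935021-19940817, over the end of the gene and past it, and there was no region called in 2 wild-type libraries. Within that span wild-type replicate 2 had a peak of 2.35 and replicate 1 an interval of 1.92 under the threshold, and replicate 3 had a peak of 2.73 near the start of the gene. This gene was singled out after its values were seen.

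Of 16 RdDM genes, 6 had a region and 2 kept it, against the background of 62.5%, a difference with no test on so few genes. CLSY1, which recruits Pol IV, had a wide pericentromeric region upstream with a met1 fold of 5.25, against 5.80, 6.37 and 8.49 in wild type. AGO6, an Argonaute of the pathway, had a met1 fold of 2.93, against 2.68, 3.60 and 2.33. At NRPD2, the shared second subunit of Pol IV and Pol V, met1 had no interval, against wild-type folds of 3.36 and 4.65 in replicates 1 and 3. DCL3, which cuts the small RNAs, had no met1 interval either, against 2.55, 2.15 and 3.70 in wild type. The same held for SUVH9, which helps to recruit Pol V to methylated DNA, against 2.70 and 4.52 in wild-type replicates 1 and 3. IDN2, which binds RNA in the pathway, had a met1 interval of 1.898 under the threshold. Of the 9 RdDM mutant libraries, only 2 had a peak at NRPD2 and 2 at IDN2, against 8 at DCL3 and 9 at SUVH9. SUVH2, the close relative of SUVH9, had a met1 peak of 2.11 and no wild-type region.

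Of 7 silencing genes, MOM1 and 6 MORC genes, 3 had a region and all 3 kept it. Upstream of MORC6 the met1 fold was 4.24, against 5.28, 4.78 and 8.39 in wild type, and MORC5 kept 1 of its 2 regions. At MORC7 the met1 peak reached 4.26, against 6.03, 6.53 and 5.01, over a region of several kilobases that the transgene shares, so binding at the gene and reads from the transgene cannot be told apart.

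Among 17 loci known to be silenced by, or sensitive to, DNA methylation, 9 had a wild-type region and 7 kept it. SDC, an F-box gene silenced through repeats in its promoter, had a met1 fold of 6.84, against 3.85, 2.78 and 7.22 in wild type. The met1 peak, chr2:7681496-7684042, covered nearly the whole gene, whereas the wild-type region ended at 7682614. HDG3, an imprinted homeobox gene, had a met1 fold of 4.88, above both wild-type values of 2.86 and 3.22, with no peak in replicate 2. HDG9, of the same family, had 5.09 in met1 and 5.57, 5.01 and 6.73 in wild type. QQS, a young gene known for natural epigenetic variation, had 3.25 in met1, against 4.19, 2.79 and 7.56, and MPC, an imprinted gene, had 2.77, against 2.43, 3.27 and 4.32. AG, the floral homeotic gene, had 3.66, against 4.54, 2.62 and 4.27, and the resistance gene SNC1 kept at least 1 of its 3 regions. FWA, the classical epiallele whose promoter repeats lose methylation in met1, had a met1 interval of only 1.51, against 2.06 and 3.37 in wild-type replicates 1 and 3 and no peak in replicate 2. Only 4 of the 9 RdDM mutant libraries had a peak at the FWA region, so its loss was not particular to met1. Both regions at the ONSEN retrotransposon copy lacked a met1 interval, and at the stronger one, with wild-type folds of 2.85 and 3.39 in replicates 1 and 3, none of the 9 RdDM mutants had a peak. SUPERMAN (SUP), a floral gene known to become methylated in met1 plants, had a met1 peak of 2.30 and no wild-type region.

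**Figure D5:**
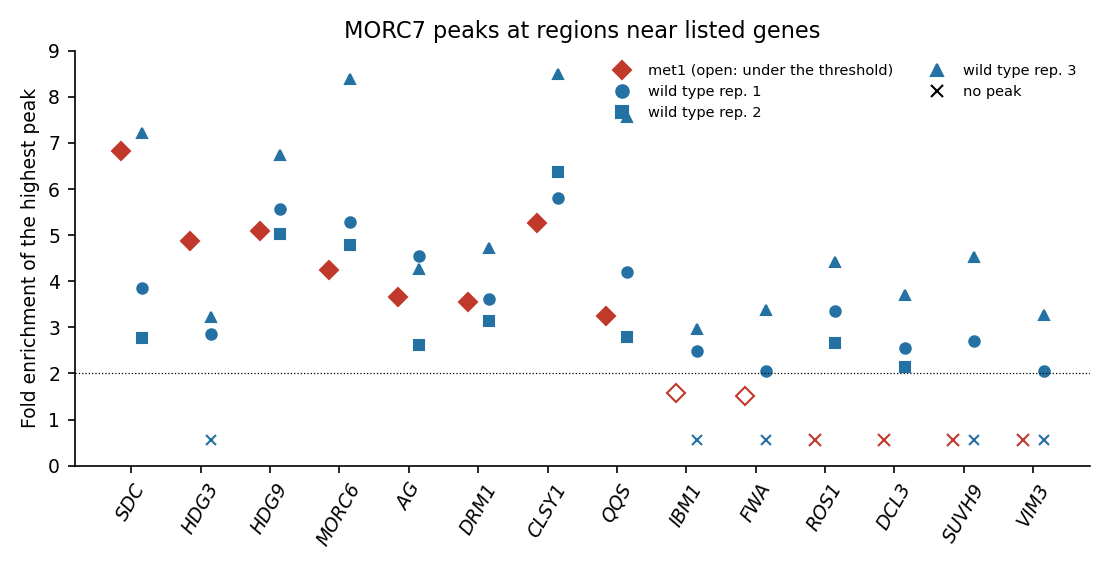
Fold enrichment of the highest peak at the wild-type region of 14 listed genes, for met1 (red diamonds, open where under the threshold) and wild-type replicates 1 to 3 (blue). Crosses mark no peak and the dotted line is the fold threshold of 2. ROS1, DCL3, SUVH9 and VIM3 have no met1 interval, and among the 14 genes met1 lies above every wild-type value only at HDG3.

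The intervals that the study examined for met1, together with AT4G26360, gave 3 outcomes. SUP, which the study also showed for met1, is described above. Between AT1G18540 and AT1G18550, met1 had no interval at the AT1G18540 end, against wild-type folds of 3.22, 2.39 and 4.57. Its nearest peak, of fold 2.18, lay at the far end of AT1G18550. Upstream of AT1G18910 the met1 fold was 4.19, against 3.65, 2.57 and 5.70 in wild type. At the pseudogene AT1G18930 it was 3.25, against 3.57, 2.87 and 5.15. At the pseudogene AT4G26360 the met1 peak only just passed, with 2.098 against 5.34, 3.17 and 5.61, while nrpe replicate 2 and dms3 replicate 1, which share its date string, reached 3.95 and 4.35.

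Sadhu elements are small non-autonomous retrotransposons, several of which are known to differ in expression between strains through methylation. They were added after seeing the data. Of 16 annotated copies 9 had a wild-type region and 7 kept it. SADHU3-1, upstream, had a met1 fold of 4.28, against 3.03 and 3.86 in wild-type replicates 1 and 3, SADHU1-1 had 3.38 against 6.13, 4.28 and 5.21, and SADHU6-1 had no met1 interval. SADHU7-2, a silent pericentromeric copy at 0 TPM in all 3 wild-type libraries, had a met1 peak of 5.09 and no wild-type interval in any replicate. Of the 5 floral marker genes, AP1, AP3, AG and SEP3 had a region and all 4 kept it. The met1 peaks at SEP3 (5.03, against 3.60, 2.55 and 3.88) and at PI (4.37, against 2.22 and 1.82 in replicates 1 and 3) were higher and wider than those of wild type. At PI the met1 peak spanned chr5:6827689-6830594, extending past the wild-type intervals on both sides.

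The strongest lost regions lay well over the threshold in wild type. Of the 6 arm regions of highest mean wild-type fold without a met1 peak, 4 are described here. Their wild-type folds were 3.01 to 7.92, and 3 of them had peaks in all 9 RdDM mutant libraries. The exception was the region upstream of ARLA1A (AT5G37680), a small GTPase gene, with a met1 interval of 1.65, no peak in any of the 9, and 5.65, 3.10 and 7.51 in wild type. AT2G25310, which encodes a subunit-like protein of an endoplasmic reticulum complex, had no met1 interval, against 4.90, 3.58 and 7.81 in wild type. Of the 4 pericentromeric ones, those at the DNA ligase gene AT4G08310 and at the pseudogene AT3G30122 had no met1 interval, against wild-type folds of 5.92, 4.09 and 7.33 at AT4G08310 and 5.29, 3.98 and 7.88 at AT3G30122. The region near AT3G29570 had a met1 interval of 1.98 and the one near AT2G06822 one of 1.60. Among the strongest kept regions, 3 lay downstream of genes listed at no more than 0.03 TPM in wild type. These were the C1-domain genes AT1G58037 and AT3G45530, with met1 folds of 6.90 and 6.95, and the F-box gene AT1G13200 with 6.73. AT1G60110 was also low, at no more than 0.05 TPM. Other strong kept regions lay upstream of expressed genes. AT2G30740 was at 12.44, 11.94 and 13.01 TPM, and AT2G04940 at 9.42, 9.01 and 9.35 TPM. Strong lost regions were mixed too, with AT2G03250 at 0 TPM and AT5G39320 at 11.63, 12.56 and 12.82 TPM. A link between strong kept regions and silent genes was not tested.

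Readouts that took no part in choosing the regions also differed between kept and lost sites. MORC4 peaks, from the close relative of MORC7, were present at 13.6% of kept and 4.67% of lost regions in replicate 1, which had few peaks, and at 50.9% of both in replicate 2. That tie held over all regions only. Replicate 2 had peaks at 83.7% of kept and 68.9% of lost regions in pericentromeres, and at 40.3 and 46.2% in arms. From the lowest fold quintile up, it was at 7.69, 17.6, 38.6, 72.3 and 93.3% of kept regions. At lost regions the shares were 17.1, 41.8, 59.6, 76.0 and 92.2%. The 2 MORC4 libraries thus did not give the same picture. A wild-type Pol II peak overlapped 29.3% of kept and 21.4% of lost regions. Among the lost ones it was 30.5% where met1 had a weak interval and 13.3% where it had none. The order was the other way in pericentromeres, at 7.83% of kept and 9.27% of lost regions, and in the highest fold quintile, at 14.3 and 17.4%. Untagged FLAG peaks were rare, at 0.18 and 2.09% of kept and 0.32 and 1.20% of lost regions. Those of untagged replicate 2 were at 6.16% of kept and 1.93% of lost regions in pericentromeres, and at 0.78 and 1.01% in arms. In the highest fold quintile they were at 3.98 and 0.87%. Without regions at untagged peaks, the pericentromere minus arm difference in met1 was 3.94 percentage points, against 5.08 with them. Over all regions every RdDM mutant library had a peak more often at kept than at lost ones, from 70.8 against 65.0% in nrpd replicate 2 to 87.3 against 53.8% in nrpe replicate 2. In the lowest 2 fold quintiles both nrpd libraries and nrpdnrpe replicate 2 went the other way, for example 40.2% of kept and 52.8% of lost regions in the second quintile for nrpd replicate 1. Regions with no met1 interval had a peak in 74.98% of cases in nrpd replicate 2, above its share at kept ones.

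Genes within 1 kb of kept regions had median levels of 5.17, 5.23 and 5.42 TPM in the 3 libraries labelled WT RNA-seq. Those near lost regions had 5.91, 5.58 and 5.89 TPM. In the highest fold quintile the medians were 1.65, 1.44 and 1.48 TPM near kept regions and 5.99, 5.82 and 5.09 TPM near lost ones, with a gene at 47.8% of the kept and 62.6% of the lost regions. The order was the other way in 2 lower quintiles, with 7.27, 6.94 and 7.14 TPM near kept and 5.72, 5.57 and 5.99 TPM near lost regions in the second lowest, and 6.66, 6.36 and 6.44 against 4.61, 4.31 and 4.55 TPM in the middle one. So the sign depended on the quintile. These are levels in plants with MET1, and genes are not replicates, so no test was made. RNA-seq and bisulfite data of met1 plants were not analysed here, so the methylation left at each region was not measured.

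Seen from the met1 list, 4247 of its 6574 peaks (64.6%) lay at a wild-type region, 5265 (80.1%) at a peak of any wild-type library, and 1309 (19.9%) outside every wild-type peak. The last group had a median fold of 2.45, against 2.87 for the met1 peaks at wild-type regions, and 57.4% of it was pericentromeric, against 27.9%. Of these, 933 also lay outside every deposited wild-type interval, with a median fold of 2.50 and 67.5% in pericentromeres. Over the whole list 33.3% of met1 summits were pericentromeric, against 22.0, 16.1 and 29.0% in wild-type replicates 1, 2 and 3.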

How the data were processed

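ChIP-seq of FLAG-tagged MORC7 was compared between met1 (1 library) and wild type (3 libraries), with 9 libraries of RdDM mutants as context. The met1 replicate 1, bisulfite data, RNA-seq of MORC7-FLAG and of met1 plants, and transposon annotation were not analysed here. All TPM values are from the libraries labelled WT RNA-seq. Per the study's methods the authors aligned 50-base reads to TAIR10 with Bowtie2, keeping unique perfect matches, and removed duplicates with SAMtools. The deposited peak lists give, for each library called on its own with MACS2, a fold enrichment (a ratio to local background) and a −log10 q value; the control used is not given in the sources used here. The deposited RNA-seq tables give TPM, which the submitters' processing notes credit to RSEM. Those notes name Bowtie2 2.1.0, SAMtools 1.9, MACS2 2.1.1 and RSEM 1.3.1. Fold enrichment is relative to each library's background, so presence of a peak was compared and fold was described only. Chromosome lengths matched the TAIR10.1 RefSeq genome, and 2213 of 2225 gene models in the deposited tables (99.5%) lay inside their RefSeq gene.

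Wild-type regions were merged peaks of at least 2 of 3 libraries, and an overlap of 1 bp counted. The mean wild-type fold of a region is over the libraries that called it. Shares carry exact Clopper-Pearson 95% intervals, which cover counting error over regions of 1 library. Tests were two-sided exact permutation tests over libraries, with Benjamini-Hochberg adjustment over 9 measures. Overlap code was tested on simulated intervals and gave 1800 of 1800 decisions right. Python 3.11.15, NumPy 2.4.6, SciPy 1.17.1 and matplotlib 3.10.9 were used. The regions and lists were chosen with earlier results of these data known. Named genes are those of the lists with a wild-type region within 1 kb, the intervals examined by the study for met1 and AT4G26360, and the 6 kept and 6 lost arm regions and 4 kept and 4 lost pericentromeric regions of highest mean wild-type fold called in all 3 wild-type libraries, of which 2 lost arm regions are not reported here; MET1, SUVH2, PI and the Sadhu copies were named after their values were seen. Alternatives were other thresholds (q below 0.001 with fold above 3, all deposited intervals, the 2000 top peaks), overlap rules, region definitions, pericentromere definitions, window sizes, and leaving out each wild-type library.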

Additional observations from a re-analysis of the deposited data

Results flagged for a closer look

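Among the 9 RdDM mutant libraries, nrpdnrpe replicate 2 stood apart in the share of wild-type regions it recovered on the sets that leave out 1 wild-type library. Its mean was 49.9%, and its gap to the nearest other library was 0.561 of the whole range of the 9 (9 measures were looked at in this way, and chance sets apart about 1 in 20 groups). It has the fewest peaks of the 9, 4048, and met1, at 73.3%, is not close to it. Leaving it out changed the share of common regions without a met1 peak to 13.6%, from 1744 regions.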

How the results depend on the processing

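No paired analysis was possible because met1 has 1 library, so no replicate number is shared by at least 2 pairs. With 1 met1 library, no spread within met1 can be given, and the permutation tests cannot pass 0.05. The share kept in met1 was 54.2% with q below 0.001 and fold above 3, 71.1% with all deposited intervals, 54.2% with the 2000 top peaks of each library, 83.5% for regions of all 3 wild-type libraries, 39.4% for peaks of any 1, 57.3% where the met1 peak had to cover the wild-type summit, 64.7% at regions also called in the ZF-DMS3 library, and 62.1 to 82.2% without 1 wild-type library. The pericentromere minus arm difference (5.08) was 8.36 at the stricter threshold, −3.43 with all deposited intervals, 14.2 for peaks of any 1 library, 1.91 with the pericentromere cut at 67% of the median, −0.14 within 3 Mb, −6.96 as the mean within fold quintiles, 1.64 with the summit rule, and 2.86 to 7.87 without 1 library. The intergenic minus gene body difference (6.04) was 9.60 at the stricter threshold, 0.48 with all deposited intervals, 1.58 for all 3 libraries, 19.7 for any 1, and 1.28 to 12.1 without 1 library. The highest minus lowest fold quintile difference (34.5) was 29.2, 28.9, 24.3, 10.04 and 54.0 in the same order of threshold, all intervals, 2000 top peaks, all 3 libraries and any 1, 22.5 when ranked by −log10 q, and 14.4 to 39.4 without 1 library. The CG difference, kept minus lost (−0.71 per 100 bases), was −0.51 with all intervals, −1.07 with 2000 top peaks, −1.004 for all 3 libraries, −1.05 for any 1, −0.89 in windows of 75 bp each side, −1.32 in the highest fold quintile, and −1.16 to −0.76 without 1 library. Met1 minus held-out wild type (−0.59) was 9.78 with all deposited intervals, −16.4 with 2000 top peaks, and −6.27 to 5.94 without 1 library, positive without replicate 1. The share of common regions without a met1 peak (14.4%) was 25.1% without wild-type replicate 2 and 13.6% without nrpdnrpe replicate 2. Of these differences only the pericentromere one and met1 minus wild type changed sign in the settings tried; the arm distance difference (8.89) did so without replicate 3 (−1.36). The summit rule, the ZF-DMS3 regions, the highest quintile and the common regions were chosen after seeing the data. The cause of each shift was not tested.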
